A study of Mus musculus with 8 samples.

Results

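The Rab small GTPase genes were taken as the protein-coding genes whose symbol is Rab followed by a number and, where present, a letter, as named in the GENCODE annotation of the mouse genome (mm10). The rule gave 59 of 21938 protein-coding genes, and a gene was counted as having an ASH2L promoter site when a site was centred within 1 kb of any of its transcription start sites (TSSs). The rule itself reads gene names, but the family was picked for study with earlier results of these data known. Of the 59 genes, 9 had a promoter site (15.3%, 95% Wilson interval 8.24% to 26.5%), beside 14.0% of all protein-coding genes. The Rab share therefore lay near that of genes in general, and the interest of the family is in which of its members carried a site.

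ASH2L is a core subunit of the KMT2 complexes, which methylate lysine 4 of histone H3. Its sites were mapped by ChIP-seq, that is chromatin immunoprecipitation followed by sequencing, in iMEF cells, immortalised mouse embryo fibroblasts with floxed Ash2l alleles and Cre-ER, in which the endogenous gene had been deleted and human ASH2L with an N-terminal FKBP12F36V tag and HA epitopes was expressed from a lentiviral construct. The 8 libraries formed 4 groups of 2 replicates, namely HA precipitates and inputs of untreated cells and of cells given the degrader dTAG for 1 h, and all of them carried the deletion and the tagged human protein. The study worked mainly with a single clone of these cells, so the sites describe a tagged human protein in clonal cells.

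The sites came as 1 list compiled by the authors across all samples, with 6444 sites given by chromosome, start and end. The list held no signal per sample, so it showed neither the depth of the libraries nor a replicate error, and the effect of dTAG on the sites was not analysed here. A separate list of sites changed after dTAG, which the study names, was not used here. A promoter without a site in this list is one where no site was called at the depth of these libraries, which is not the same as a promoter without ASH2L. Intervals cover counting error over genes only, and genes are not replicates.

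Rab proteins are molecular switches of membrane traffic. An exchange factor loads them with GTP on a membrane, the active form recruits effectors that move, tether or fuse vesicles, and a GTPase-activating protein ends the cycle, after which a GDP dissociation inhibitor (GDI) extracts the lipid-anchored protein from the membrane. Each compartment carries its own set, so that Rab5 marks early endosomes and Rab7 late endosomes, and some Rabs work in nearly every cell while others serve synaptic vesicles, melanosomes, secretory granules or the apical surface of epithelia.

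The 9 genes with a site were Rab1a, Rab2a, Rab10, Rab11a, Rab12, Rab21, Rab13, Rab23 and Rab30. The following stretches, read from GRCm38.p6 in the direction of transcription, show the DNA under the widest Rab sites centred within 250 bp of a TSS, with the dinucleotide CG in capitals, since unmethylated CG-rich DNA is what CpG islands are made of. Only the longest part of each site outside untranslated regions is given, at most 200 bp. Rab23 was also among the widest, but its whole site lay in an untranslated region and is not shown.

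Rab13 (chr3:90213494-90213609, plus strand): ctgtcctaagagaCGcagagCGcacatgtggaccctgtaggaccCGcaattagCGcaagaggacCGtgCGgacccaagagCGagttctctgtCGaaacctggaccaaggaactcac
Rab1a (chr11:20201696-20201895, plus strand): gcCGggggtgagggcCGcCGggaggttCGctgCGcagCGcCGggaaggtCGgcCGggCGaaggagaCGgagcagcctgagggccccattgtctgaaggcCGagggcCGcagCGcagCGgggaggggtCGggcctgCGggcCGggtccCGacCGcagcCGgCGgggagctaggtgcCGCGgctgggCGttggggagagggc
Rab21 (chr10:115315180-115315346, minus strand): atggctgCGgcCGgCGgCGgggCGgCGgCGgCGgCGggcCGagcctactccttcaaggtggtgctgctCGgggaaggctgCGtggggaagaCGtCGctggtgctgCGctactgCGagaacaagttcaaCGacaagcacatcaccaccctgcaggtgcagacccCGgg

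The Rab1a stretch held 25 CG in 200 bp, the Rab21 stretch 18 in 167 bp and the Rab13 stretch 8 in 116 bp. The next lines give the bases before the RefSeq start of Rab1b, the close paralog of Rab1a that had no site. They also give those of Rab25, an epithelial Rab without a CpG island that was added after its values had been seen. They were trimmed in the same way.

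Rab1b (chr19:5107073-5107196, minus strand): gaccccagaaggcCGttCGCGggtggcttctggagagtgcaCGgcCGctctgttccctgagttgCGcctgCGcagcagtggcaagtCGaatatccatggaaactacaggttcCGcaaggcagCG
Rab25 (chr3:88548301-88548479, minus strand): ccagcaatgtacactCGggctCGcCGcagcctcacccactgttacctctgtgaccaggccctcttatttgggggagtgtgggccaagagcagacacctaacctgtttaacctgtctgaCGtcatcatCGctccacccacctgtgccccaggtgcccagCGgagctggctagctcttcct

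Rab1b had 10 CG in 124 bp and Rab25 had 6 in 179 bp. These are examples of unlike stretches, under a site or before a start, and are not a comparison of CG content. The CG content of all Rab starts is compared further on.

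In the early secretory pathway 3 of 14 Rab genes had a promoter site. Rab1a, which drives transport from the endoplasmic reticulum to the Golgi, had a site of 513 bp (chr11:20201441-20201953) centred 88 bp downstream of a TSS, in an intron. Rab2a, which acts between the Golgi, the endoplasmic reticulum and lysosomes, had a site of 322 bp (chr4:8535870-8536191) centred 386 bp downstream of its only annotated TSS, also in an intron. Both lay in CpG islands, of 1274 bp at Rab1a and 1100 bp at Rab2a.

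Rab30, a Golgi Rab, had the most sites of any Rab gene. Its 4 sites ran from 593 bp upstream to 911 bp downstream of a TSS (chr7:92740911-92741110, chr7:92741219-92741446, chr7:92741971-92742403 and chr7:92742426-92742730) and were 200 to 433 bp wide. The pair upstream lay in a CpG island of 868 bp and was nearer to the TSS of the divergent noncoding gene 4632427E13Rik, at 449 and 127 bp, than to that of Rab30. The pair in the first part of the gene lay in intron sequence outside any island, so Rab30 was the only Rab gene with promoter sites in DNA not counted as an island.

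The other early secretory members, Rab1b, Rab2b, Rab6a, Rab6b, Rab18, Rab19, Rab33a, Rab33b, Rab34, Rab36 and Rab43, had no site within 1 kb. Rab1b was 92823 bp from the nearest site, and Rab2b was 11392 bp from a site at the promoter of Chd8. Rab34, which works at the Golgi and in cilium formation, was closer, with a site 5342 bp upstream that lay at the promoter of the ribosomal protein gene Rpl23a.

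Among early endosome genes 1 of 9 had a site, and it was Rab21, a Rab of integrin traffic. Rab21 had 3 promoter sites in 1 CpG island of 1376 bp. The widest Rab site of all, of 668 bp, was centred 887 bp downstream of the TSS in an intron (chr10:115314371-115315038), the middle site of 401 bp 211 bp downstream in an untranslated region (chr10:115315180-115315580), and the third, of 356 bp, 333 bp upstream (chr10:115315750-115316105). The upstream site was nearer to the divergent gene Gm10752, at 281 bp, than to Rab21. Rab21 also had the richest neighbourhood, with 12 sites within 100 kb of its start, beside a median of 1 over the Rab genes.

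The genes of the classical early endosome Rabs, Rab5a, Rab5b, Rab5c, Rab4a and Rab4b, had no site, nor had Rab20, Rab22a and Rab31. The site nearest to Rab5b was 8378 bp upstream, at a promoter shared by Cdk2 and Pmel. For Rab22a, which acts in endosomal sorting, the nearest site lay inside the gene, 9470 bp downstream of a TSS and at no protein-coding promoter.

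In the recycling group 1 of 7 genes had a site. Rab11a, the main Rab of recycling endosomes, had a site of 346 bp centred 2 bp upstream of a TSS (chr9:64737560-64737905), the closest of all Rab sites to a TSS, in a CpG island of 1405 bp. Its paralog Rab11b had none, and its nearest site was 168896 bp upstream at Rgl2. Rab14, Rab35, Rab15, Rab17 and Rab25 had none either, and Rab17 and Rab25, both Rabs of polarised epithelia, were the 2 Rab genes without any CpG island within 1 kb of a TSS.

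Among late endosome, lysosome and autophagy genes 1 of 7 had a site. This was Rab12, a Rab of lysosomal delivery and autophagy, with a site of 355 bp centred 19 bp upstream of a TSS (chr17:66519512-66519866), at a position that is coding sequence in another transcript. Its island was the longest of the genes with a site, at 1675 bp. Rab7, the Rab of late endosomes, had no site, and the nearest lay 9600 bp upstream at no protein-coding promoter. Rab7b, Rab9, Rab9b, Rab24 and Rab29 had none.

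In the exocytosis group 2 of 13 genes had a site. Rab10, which brings glucose transporter vesicles and basolateral cargo to the plasma membrane, had a site of 277 bp centred 292 bp downstream of its only TSS (chr12:3309539-3309815), in an untranslated region. It was followed by a pair of sites farther into the gene, centred 1236 and 2470 bp downstream in an intron (chr12:3308620-3308846 and chr12:3307400-3307599), both outside an island and outside the 1 kb window. Rab13, a Rab of tight junctions and cell surface delivery, had a site of 618 bp (chr3:90213250-90213867) centred 137 bp upstream of its TSS but 65 bp from that of the divergent ribosomal protein gene Rps27. With sites given only to the gene with the nearest TSS, Rab13 had none, and 8 of 59 Rab genes kept a site (13.6%), beside 11.8% of all protein-coding genes.

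The remaining exocytosis genes had no site, and most of them were the secretory granule and synaptic vesicle Rabs Rab3a, Rab3b, Rab3c, Rab3d, Rab26, Rab27a, Rab27b, Rab37 and Rab44. The study examined the Rab8a promoter by ChIP-qPCR for tri-methylation of the histone lysine that KMT2 complexes methylate, and not for ASH2L. It reported a decrease of that mark upon loss of ASH2L, with a higher fold decrease upstream of the TSS. Rab8a had no site in this list, and its nearest was 238100 bp upstream, the largest distance among broadly expressed Rab genes. Its paralog Rab8b, which like Rab8a serves delivery to the plasma membrane, had none either.

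Among cilium genes 1 of 2 had a site. Rab23, a negative regulator of Hedgehog signalling, had a site of 397 bp centred 7 bp upstream of a TSS in an untranslated region (chr1:33719933-33720329). Rab28 had none. No site was found at the lysosome-related organelle genes Rab32 and Rab38, nor at the 5 remaining genes Rab39, Rab39b, Rab40b, Rab40c and Rab42.

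**Figure D1:**
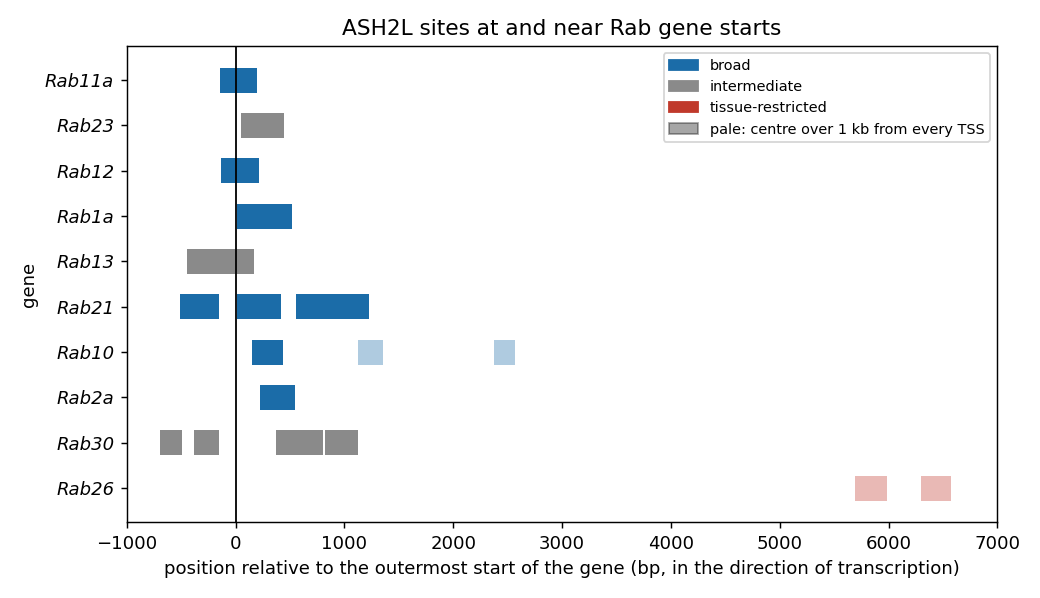
Each bar is an ASH2L site drawn to scale, with the horizontal axis giving its position in bp from the outermost start of the gene in the direction of transcription, for the 9 Rab genes with a promoter site and Rab26, coloured by expression class. Rab21 has 3 and Rab30 has 4 sites around the start, and the pale bars of Rab10 and Rab26 mark sites centred more than 1 kb from every TSS of the gene.

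The 14 Rab promoter sites had a median width of 355.5 bp, with a range of 200 to 668 bp, beside a median of 305.0 bp over the 3168 promoter sites of protein-coding genes. Their centres lay downstream of the nearest TSS of the Rab gene at 7 sites and upstream at 7. Over all protein-coding genes 61.3% lay downstream, counted per pair of site and gene, so that sites at shared promoters count more than once. Rab21 and Rab30 were the 2 of 9 genes with more than 1 site (22.2%), beside 14.8% of all protein-coding genes with a site. The central 200 bp of the Rab sites held a median of 20 CG, with a range of 4 to 37, and the median over all promoter sites was also 20. No difference in width, position or CG content was tested, since the 14 sites fell in 9 genes and those of a gene share its promoter.

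The comparison of broadly expressed with tissue-restricted members asked whether sites followed the breadth of expression. The classes were set by hand from general knowledge of the genes, with earlier results of these data known, and not from expression in these cells, with 28 genes called broad, 19 tissue-restricted and 12 intermediate. Of the broad genes 6 had a site (21.4%, 95% Wilson interval 10.2% to 39.5%), namely Rab1a, Rab2a, Rab10, Rab11a, Rab12 and Rab21. Of the intermediate genes 3 had a site (25.0%, interval 8.89% to 53.2%), namely Rab13, Rab23 and Rab30. Of the tissue-restricted genes 0 of 19 had a site, which allows a share of up to 15.8% by the limit of 3 counts, and the Wilson interval reached 16.8%. That limit lies above the 14.0% of all protein-coding genes, so 19 genes are too few to show a share under the general one.

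The difference between broad and tissue-restricted genes was 21.4 percentage points, with a 95% Newcombe interval of 1.21 to 39.5. The interval reached below 0 when the 12 intermediate genes were counted as restricted (11.8 points, -7.16 to 30.9), when the window was 3 kb (16.2 points, -6.22 to 34.8) and when only genes with a CpG island were compared (21.4 points, -0.148 to 39.5). The direction held in each of these, but the size is loosely known.

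**Figure D2:**
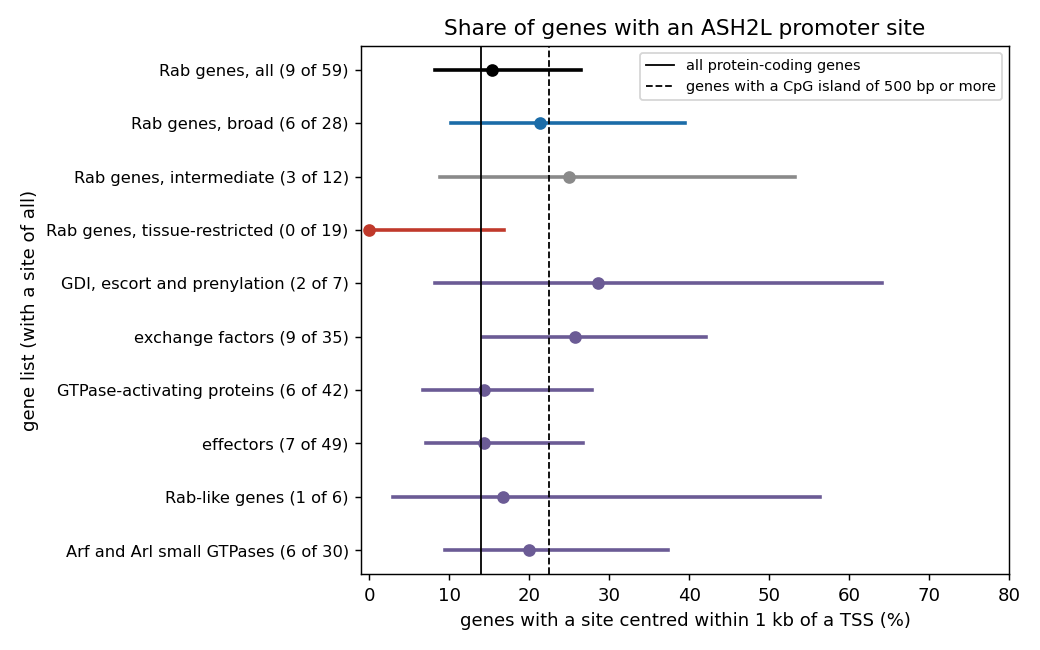
Points give the percentage of genes with a site centred within 1 kb of a TSS and lines the 95% Wilson interval, for the Rab genes, their classes and related gene lists, with the solid line at all protein-coding genes and the dashed line at genes with a CpG island of 500 bp or more. The tissue-restricted Rab genes are at 0, and the intervals of all the lists shown are wide and overlap.

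The classes also differed in the DNA of their starts. CpG islands are stretches rich in CG, counted here from 200 bp upward where more than 50% of bases were G or C and where CG occurred at over 0.6 of the frequency that the base content predicts, a quotient called the CpG ratio. They lay within 1 kb of a TSS in 57 of 59 Rab genes, beside 73.4% of all protein-coding genes. An island of 500 bp or more was present at 28 of 28 broad genes, at 11 of 12 intermediate genes and at 12 of 19 tissue-restricted genes (63.2%). The share over all protein-coding genes was 60.5%, near that of the tissue-restricted genes. All 9 genes with a site had such an island. Of the 51 Rab genes with one, 9 had a site (17.6%, interval 9.57% to 30.3%), beside 22.5% of all genes with an island of that length. With an island of any length the shares were 9 of 57 (15.8%) and 19.0%. Among the 12 tissue-restricted genes with a long island, among them Rab3a with 1296 bp and Rab6b with 1183 bp, 0 had a site, which allows a share of up to 25.0%.

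The CpG ratio of the 1 kb around the outermost start had a median of 0.78 in broad genes, 0.69 in intermediate genes and 0.51 in tissue-restricted genes, beside 0.55 in all protein-coding genes. It ranged from 0.174 at Rab18 to 1.04 at Rab6a in the broad class. Rab18 has an island of 794 bp within 1 kb of an annotated TSS, and the ratio was computed at the outermost start alone. In the tissue-restricted class it ranged from 0.228 at Rab7b to 0.755 at Rab6b, and no gene of that class reached 0.8. The median was 0.88 over the 9 genes with a site and 0.68 over the 50 without. The ranges overlapped, from 0.597 at Rab30 upward in the former and up to 1.04 at Rab6a in the latter.

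**Figure D3:**
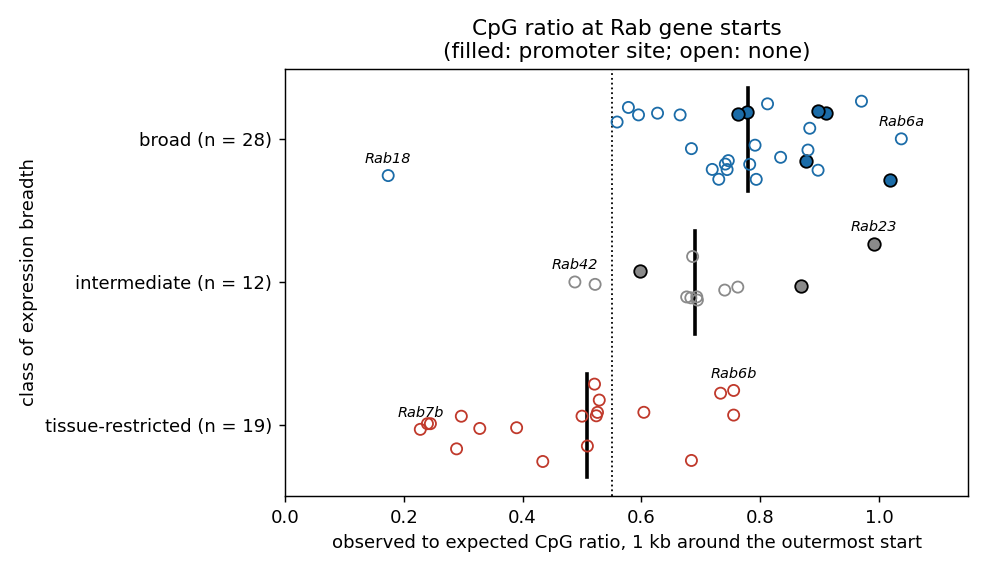
Each point is a Rab gene, with the observed to expected CpG ratio of the 1 kb around its outermost start on the horizontal axis and expression classes in rows (vertical jitter only separates points), filled where the gene has a promoter site. Black bars are class medians of 0.78, 0.69 and 0.51 from top to bottom, the dotted line is the median of all protein-coding genes, 0.55, and filled points lie mostly to the right.

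Over all protein-coding genes the share with a site rose with this ratio, from 2.23% below 0.3 through 6.42% between 0.3 and 0.6 and 17.1% between 0.6 and 0.8 to 37.2% at 0.8 and over. Rab genes with a site numbered 0 of 6, 1 of 15, 2 of 25 and 6 of 13 in the same ranges. The 7 Rab genes in the highest range without a site were Rab5a, Rab6a, Rab8b, Rab24, Rab35, Rab40c and Rab43, all of them broad. At the shares of all genes in these ranges, the 28 broad genes would have 6.53 genes with a site where 6 were counted, the 12 intermediate genes 2.13 where 3 were counted, and the 19 tissue-restricted genes 1.54 (8.13%) where 0 were counted. These numbers are too small to tell the counts of each class from those of genes of like CpG ratio. The CpG ratio moved with the classes, and its part in the difference between them was not tested further.

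**Figure D4:**
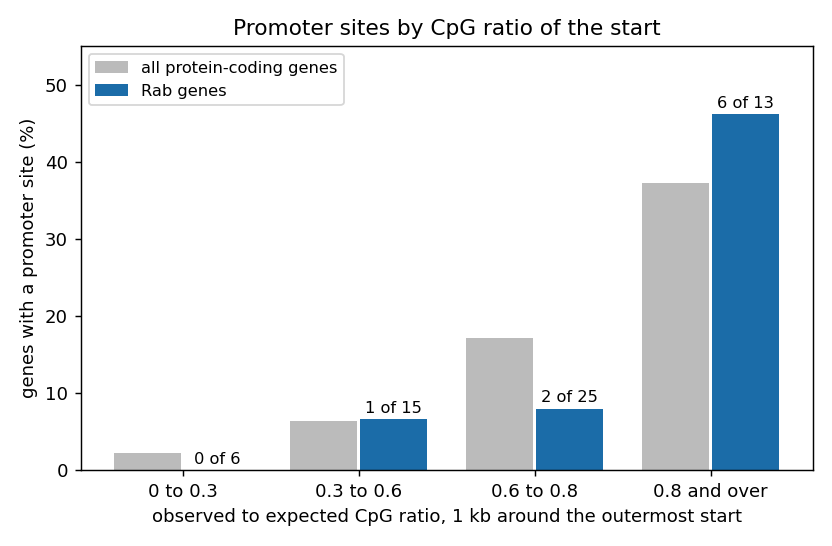
Bars give the percentage of genes with a promoter site by the observed to expected CpG ratio of the outermost start, for all protein-coding genes (grey, 2.23% to 37.2%) and for Rab genes (blue), with the counts of Rab genes printed above. Both are highest in the top range, where 6 of 13 Rab genes have a site.

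For the 50 Rab genes without a promoter site, the nearest site was a median of 84.7 kb away, with a range of 1.57 to 1310 kb, beside a median of 124 kb over all protein-coding genes without a site. It lay within 10 kb in 5 genes, namely Rab26, Rab34, Rab5b, Rab22a and Rab7, and within 100 kb in 28. At 34 of the 50 genes the nearest site was the promoter site of another protein-coding gene, and in 3, Rab22a, Rab26 and Rab40b, it lay inside the gene. These counts of genes were not taken over all protein-coding genes and are a description only.

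Rab26, a Rab of secretory and synaptic vesicles, was outside the window. The gene runs on the minus strand from its outermost start at chr17:24534210 to chr17:24527241, and its TSS nearest to the sites was an internal one. Rab26 had a site centred 1575 bp downstream of that TSS in an intron (chr17:24528227-24528515) and another 2173 bp downstream in an untranslated region (chr17:24527635-24527911). The former was 104 bp from the TSS of Rab26os and the latter 11 bp from that of Traf7, so both lay at starts of other genes. Of the genes just inside the window, Rab2a was the one whose closest site was farthest from a TSS, at 386 bp, so no Rab gene had its closest site between 386 and 1575 bp.

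The farthest sites were those of tissue-restricted genes. Rab39b, a neuronal Rab, was 1307141 bp from a site, Rab38, a Rab of melanosomes, 908242 bp, Rab25, the epithelial Rab of the Rab11 subfamily, 603850 bp, and Rab33a, a Rab of neurons and the Golgi, 463404 bp downstream of it. Rab15, a recycling Rab of neural cells, had its nearest site 387018 bp upstream. The median distance was 169 kb in the 19 tissue-restricted genes, 80.5 kb in the 22 broad genes without a site and 31.1 kb in the 9 intermediate genes without a site. The broad genes without a site ranged from 8.38 to 238 kb, so distances of the classes overlapped.

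No site at all lay within 100 kb of the start of 13 of 19 tissue-restricted genes (68.4%), 8 of 28 broad genes (28.6%) and 1 of 12 intermediate genes (8.33%), beside 50.9% of all protein-coding genes. This count includes the promoter sites themselves. Among genes without a promoter site it was 13 of 19 tissue-restricted (68.4%), 8 of 22 broad (36.4%) and 1 of 9 intermediate genes (11.1%), beside 59.0% of all protein-coding genes without one. The number of other protein-coding genes that start within 100 kb had a median of 3 in each full class and of 4.5 in the 22 broad genes without a promoter site. The 4 Rab genes on the X chromosome, Rab9, Rab9b, Rab33a and Rab39b, had no site within 100 kb, beside 77.2% of all protein-coding genes on that chromosome. A promoter site was present at 2.53% of the genes of that chromosome.

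**Figure D5:**
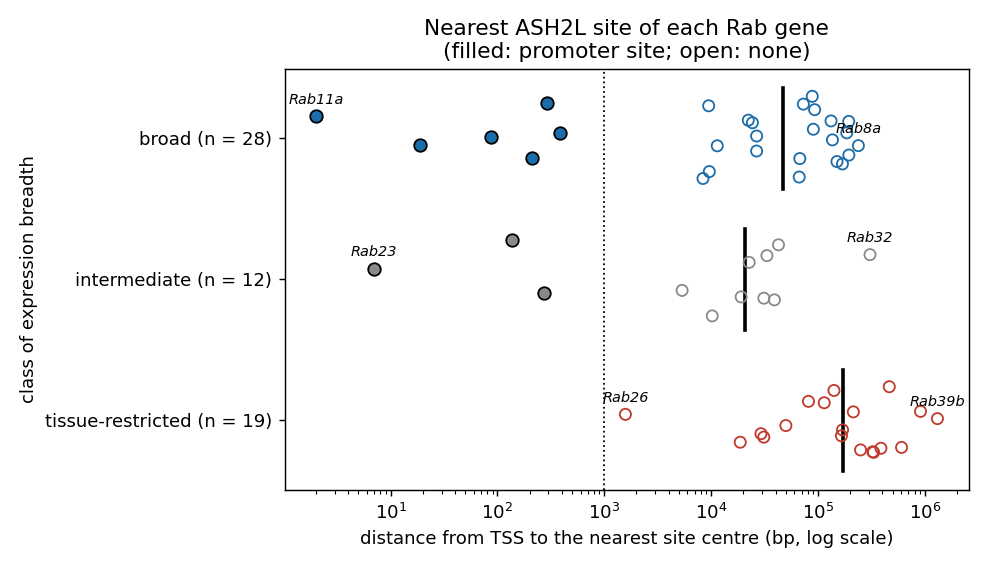
Each point is a Rab gene, with the distance in bp from its nearest TSS to the centre of the nearest ASH2L site on a logarithmic horizontal axis and expression classes in rows (vertical jitter only separates points). Filled points are genes with a promoter site, the dotted line is the 1 kb window, black bars are class medians over all genes of the class, and the tissue-restricted genes all lie to the right of the line, from Rab26 at 1575 bp to Rab39b at 1307141 bp.

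Close paralogs were compared because they share function and much of their coding sequence. The groups, like the classes, were set by hand. The 59 genes held 16 groups of paralogs with 35 members. In 13 groups no member had a site, in 3 groups some did, and in 0 groups all did. With 14.0% of all protein-coding genes carrying a site, most small groups would have none, so these group counts are a description only. Of the 35 grouped genes 3 had a site (8.57%), and of the 24 in no group 6 had one (25.0%). The 95% Wilson intervals of these shares overlap, the former reaching up to 22.4%. Both shares depend on the grouping, in which Rab10 and Rab13, each with a site, and Rab25, of the Rab11 subfamily, were in no group. The split groups were Rab1a with a site and Rab1b without, Rab2a with and Rab2b without, and Rab11a with and Rab11b without. All 6 of these genes are broadly expressed and had CpG islands, of 1274 bp at Rab1a and 700 bp at Rab1b, of 1100 bp at Rab2a and 1492 bp at Rab2b, and of 1405 bp at Rab11a and 1074 bp at Rab11b. The CpG ratio was 0.763 at Rab1a and 0.744 at Rab1b, 1.018 at Rab2a and 0.741 at Rab2b, and 0.777 at Rab11a and 0.746 at Rab11b, so the member with a site was the higher of each pair, by small amounts in the Rab1 and Rab11 pairs. The other 6 Rab genes with a site were in no group of close paralogs as set here.

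Promoter sequences from 250 bp before to 50 bp after a RefSeq start (GRCm38.p6) were used for 48 of the 59 Rab genes, among them 7 of the 9 with a site. Promoter sequences of Rab2a, Rab4a, Rab7b, Rab18, Rab26, Rab27b, Rab30, Rab36, Rab37, Rab38 and Rab44 were not used here. Motifs were matched letter by letter on both strands. The ETS motif CCGGAAGT was in 2 of 48 Rab promoters (4.17%) and 5.54% of all promoters, the CRE TGACGTCA in 2 (4.17%) and 2.42%, and the E-box CACGTG in 5 (10.4%) and 8.09%. The EGR motif GCGNGGGCG was in 4 (8.33%) and 7.77%. These shares lay close to those of all promoters.

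The SP/KLF motif CCCCGCCCC was in 12 Rab promoters (25.0%) and 16.0% of all promoters, the CCAAT box CCAAT in 23 (47.9%) and 38.8%, and the NRF1 core TGCGCA in 9 (18.8%) and 10.3%. Among the 7 Rab genes with a site and a RefSeq promoter, the NRF1 core was in 4 (Rab1a, Rab10, Rab11a and Rab23), the E-box in 2, the CCAAT box in 2, the ETS and EGR motifs in 1 each, and the CRE and the SP/KLF motif in 0. The shares over the 2396 promoters of all genes with a site were 15.6% for the NRF1 core, 9.52% for the E-box, 34.3% for the CCAAT box, 11.9% for ETS, 11.8% for EGR, 3.92% for the CRE and 17.4% for SP/KLF, and 7 promoters are too few to set against them. In the central 200 bp of the 14 Rab sites the ETS motif and the NRF1 core were found in 1 site each and the other motifs in 0. Over all promoter sites of protein-coding genes the shares in that window were 5.59% for ETS, 4.99% for the NRF1 core and 10.7% for the CCAAT box. They were 8.05% for EGR, 5.56% for SP/KLF, 3.31% for the E-box and 0.915% for the CRE, and 14 sites are too few to set against them. The SP/KLF and EGR motifs are both rich in G and C and can overlap in long GC runs, and a match of letters does not show that a factor was bound.

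Genes listed as running the Rab cycle were counted in the same way, from lists made for this comparison. They are read against 14.0% of all protein-coding genes and 19.0% of those with a CpG island, which 129 of these 133 genes had. GDIs, the Rab escort proteins and the prenylating enzyme, which carry Rabs and attach their lipid anchors, had a site in 2 of 7 genes (28.6%, interval 8.22% to 64.1%), Rabggtb, the catalytic subunit of the Rab geranylgeranyl transferase, and Gdi2. Exchange factors had one in 9 of 35 (25.7%, interval 14.2% to 42.1%), namely Gapvd1, Rab3ip, Ccz1, Dennd1b, Dennd6b, Dennd4b, Dennd5a, Dennd4c and Sbf2. Gapvd1 acts on Rab5, Rab3ip on Rab8 and Ccz1 on Rab7, and the DENN domain proteins act on several Rabs. The widest site of this list was that of Gapvd1, at 589 bp (chr2:34753796-34754384).

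Genes listed as GTPase-activating proteins had a site in 6 of 42 (14.3%, interval 6.72% to 27.8%), namely Tbck, Tbc1d32, Tbc1d7, Evi5, Rabgap1 and Tbc1d12. The list was matched by gene symbol, and activity on a Rab was not checked for each gene. Effectors had one in 7 of 49 (14.3%, interval 7.10% to 26.7%), namely Rbsn and Eea1, which tether early endosomes by binding Rab5, Appl1, another Rab5 effector, Rab11fip2 and Rab11fip3, which bind Rab11, and Exoc6b and Mical3. Over the 4 lists 24 of 133 genes had a site (18.0%, interval 12.4% to 25.4%), near the share of genes with an island. The 6 Rab-like genes had 1, at Rabl6.

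Arf and Arl genes, another family of small GTPases in membrane traffic, were counted for comparison. They had a site in 6 of 30 genes (20.0%, interval 9.51% to 37.3%), and this interval includes the 15.3% of the Rab genes. The members with a site were Arf6, Trim23, Arl8b, Arl4a, Arl5a and Arl4c. The widest of these sites, at Arf6, was 974 bp, wider than any Rab site.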

How the data were processed

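The labels describe 8 libraries from iMEF cells, in 4 groups of 2 replicates. Per the study's methods and the submitters' processing notes, reads were trimmed (Trim Galore) and aligned to mm10 (BWA, SAMtools), and the authors merged replicates with Picard, called narrow peaks with MACS2 and tested differential binding with DESeq2, versions not given in the sources used here. The deposited list used here holds positions only, so no count, depth or replicate error could be taken from it and dTAG was not tested. The study's own dTAG comparison was not used. Starts were read as counted from 0, and positions are printed from 1. The 16 sites outside the 21 assembled chromosomes were left out, leaving 6428.

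TSSs came from GENCODE release 21, an earlier release than the authors used, both on GRCm38. Every annotated TSS of a gene counted, sites were represented by their centre, and offsets run from the nearest TSS of the gene. CpG islands were unions of windows of 200 bp that met the stated limits. Sequences came from RefSeq GRCm38.p6. Shares have 95% Wilson intervals and differences Newcombe intervals. No p-value was computed, because the list has no replicates.

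The Rab genes, classes and lists were chosen with earlier results of these data known. Some lists made for comparison are not reported here. All genes with a site were named, and of those without a site the 5 nearest, the 5 farthest, members of split paralog groups and Rab8a with their distances. Genes in the highest CpG range and the longest islands of restricted genes were named after their values were seen. Alternatives changed the window, the TSSs, the sites and the classes. The functions were tested on simulated data, in Python 3.11.15 with pandas 2.3.3 and NumPy 2.4.6. SciPy was version 1.17.1, and figures were drawn with matplotlib 3.10.9.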

Additional observations from a re-analysis of the deposited data

How the results depend on the processing

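Under 11 alternative settings, 9 of them planned and 2 added after the data were seen, the number of Rab genes with a site ranged from 8 to 10. A window of 3 kb added Rab26, and giving sites only to the gene with the nearest TSS removed Rab13. The same 9 genes had a site with a window of 500 bp, any overlap, protein-coding transcripts only, the outermost start only, sites wider than 200 bp or RefSeq starts. The share of broad genes ranged from 21.4% to 22.5% and that of tissue-restricted genes from 0 to 9.68%, the highest with intermediate genes counted as restricted, and the difference from 11.8 to 22.5 points. Sites could not be filtered by strength, because the list has no scores. No paired analysis was possible because the list has no column per sample, and for the same reason no replicate could be left out. The depth of the libraries is not shown, and its part in missing sites was not tested.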
